A study of Homo sapiens with 3 samples.

Results

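The 8 host genes described here, GAS5, SNHG1, SNHG3, SNHG5, SNHG6, SNHG8, SNHG12 and ZFAS1, carry small nucleolar RNA (snoRNA) genes in their introns. Their members are the double-stranded RNA (dsRNA) regions that overlap, by 1 bp or more, a window drawn around each host in the hg19 build. This gave 89 of the 271645 regions listed for the series, a choice that used position and no measured value. Both dsRNA libraries came from HEK 293 cells, a human embryonic kidney line: one library from wild-type cells and one from cells with Dicer knockdown, in the labels' terms. DICER trims double-stranded RNA, among it the precursors of microRNAs, to short RNAs. Total RNA of each was digested with T1 nuclease, which cuts unpaired RNA after G, and what remained was sequenced. Another library, DICER chromatin immunoprecipitation from wild-type cells, gave a list of 119 peaks. The sources used here do not say how the knockdown was made or whether it is 1 clone, and it was not checked here.

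A host transcript of this kind is spliced, and the snoRNAs are trimmed out of the removed introns. Box C/D snoRNAs (SNORD genes) guide ribose methylation and box H/ACA snoRNAs (SNORA genes) guide pseudouridylation, mostly of ribosomal RNA. H/ACA snoRNAs fold into a pair of hairpins joined by a hinge, whereas C/D snoRNAs are shorter and pair mainly at their ends. The exons of these hosts are classed as non-coding, and GAS5 is named for the rise of its RNA in growth-arrested cells.

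Many hosts of this kind start transcription with a C followed by a run of pyrimidines, the terminal oligopyrimidine (TOP) start otherwise known from ribosomal protein genes. RefSeq start windows (GRCh38.p14) were matched by symbol for 7 of the 8 hosts, and 30 bases of each are shown. The annotated start is a feature that can be compared between hosts apart from their snoRNAs. Capitals mark the first transcribed base and, where that base is C, the pyrimidine run that it opens. Each window has 10 bases before the start and 20 from it, 5′ to 3′ on the strand of the host.

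SNHG12 (chr1:28581854-28581883, minus strand): gcttcagcgcCCTTTCTCCCCgccgcattc
SNHG5 (chr6:85678714-85678743, minus strand): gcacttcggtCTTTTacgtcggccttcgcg
ZFAS1 (chr20:49278632-49278661, plus strand): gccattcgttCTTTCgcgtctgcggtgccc
SNHG1 (chr11:62855866-62855895, minus strand): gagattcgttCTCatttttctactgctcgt
SNHG8 (chr4:118278752-118278781, plus strand): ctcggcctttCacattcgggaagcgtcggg
SNHG3 (chr1:28505933-28505962, plus strand): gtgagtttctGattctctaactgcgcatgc
GAS5 (chr1:173869026-173869055, minus strand): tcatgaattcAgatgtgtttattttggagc

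Of these 7 windows, 5 opened with C, against 14.7% of the 35116 RefSeq windows. A C followed by 4 or more bases that are each C or T was found in 3 of them, SNHG12, SNHG5 and ZFAS1, against 4.07% of all windows. The run was 11 bases in SNHG12, 5 in SNHG5 and ZFAS1, and 3 in SNHG1. These are matches of letters on the strand of the gene at 1 annotated start per host, and other starts were not searched. A start without the run, as at GAS5 and SNHG3, therefore does not show that the host lacks one.

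Each region carries a summit, the height of its read coverage as a whole number of reads, which does not grow with the length of the region. Wild type and knockdown heights were told apart by the sheet names normal and induced alone, and if these stand for something else the directions reverse. Each condition has 1 library, so every ratio compares 2 libraries, has no replicate check and is given with no p-value. Intervals on a ratio are exact binomial 95% intervals and cover counting error only. They treat each summit as a count of independent reads, although it is a coverage height, so they may be too narrow. In such bulk libraries, more dsRNA per cell and more cells with it cannot be told apart. No library of undigested RNA is among the samples. A height or ratio therefore cannot separate more of an RNA from more pairing or protection of it. Over all regions the sum of summits was 80502410 for wild type and 84057405 for knockdown, and the total reads per library are unknown. Knockdown heights were multiplied by 0.958 to equalise these sums, and a pseudocount of 1 was added. This scaling is a choice that decides direction: sums taken without the top 1% of regions raise a log2 ratio by 0.49, and scaling to the median ratio raises it by 0.55, or by less in low regions, where the pseudocount dampens it. Differences between regions of 1 host barely depend on it.

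In 0.0328% of the regions, the 8 hosts together held 0.395% of all wild-type height and 0.398% of all knockdown height. In wild type the highest region of GAS5 reached 71289, that of SNHG12 61051, of ZFAS1 31764, of SNHG1 29723, of SNHG3 28369 and of SNHG5 10897. In knockdown the same regions reached 72716, 67445, 24221, 26381, 24004 and 10036. The order was thus the same in both libraries except for ZFAS1 and SNHG1, which changed places. SNHG8 and SNHG6 stood far below, with a highest region of 613 and 252 in wild type and of 1070 and 145 in knockdown. The highest host region, in GAS5, ranked 144th of all regions in either library.

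**Figure D1:**
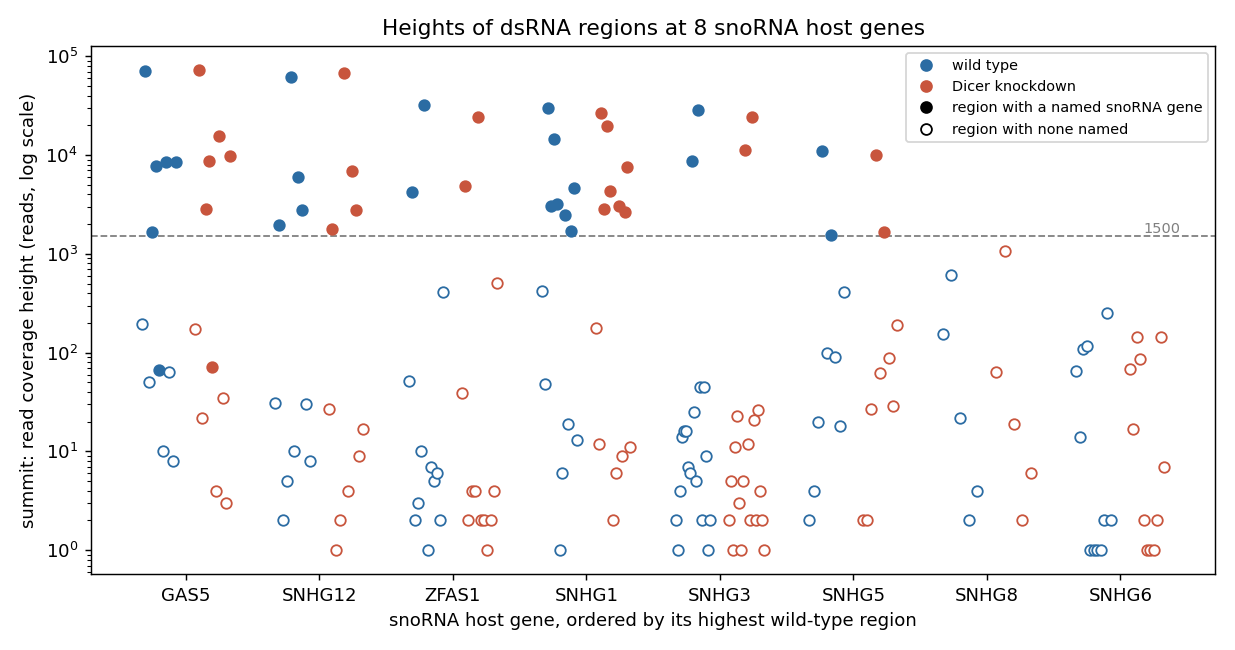
Summit of every dsRNA region (vertical axis, reads, log scale) in each host, wild type in blue and knockdown in red, with regions that hold a named snoRNA gene filled; the dashed line marks a summit of 1500. In the 6 hosts on the left a few filled regions stand above the line in both libraries, and SNHG8 and SNHG6 have none there.

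The signal within a host was concentrated in few regions. The highest region alone held 87.2% of the summed height of ZFAS1 in wild type and 81.8% in knockdown, and 84.9% and 85.4% of that of SNHG12. At SNHG1 it held 49.5% and 39.5%. Elsewhere most regions were low: the median over all 89 was 22 in wild type and 19 in knockdown, and 36 of them had a combined summit, over both libraries, below 20.

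The deposited files name no genes. Regions were therefore named by sliding the order and spacing of the snoRNA genes of each host, as RefSeq lists them, along the regions of that window. Of 31 listed snoRNA genes, 26 were placed in regions whose mean summit was at least 100, with a single best placement in GAS5, SNHG1, ZFAS1, and the neighbours SNHG3 and SNHG12 fitted as one. SNORD77 of GAS5 was placed once regions down to a mean summit of 20 were allowed. SNORD50A and SNORD50B of SNHG5 were placed once, at a mean summit of 1000 or more, an alternative chosen after seeing the data, because 2 placements were equally good at 100. Placements one gene poorer existed elsewhere in GAS5 and SNHG1, which took 8 of 9 and 7 of 8 genes. SNORD87 of SNHG6 and SNORA24 of SNHG8 are single genes, which spacing cannot place. From general knowledge rather than from a file used here, the highest region of SNHG8 (chromosome 4, 119200327 to 119200590) holds SNORA24.

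The 29 named genes lay in 23 regions, and those 23 regions carried nearly all of the height. They held 99.7% of the summed height of GAS5 in wild type and 99.8% in knockdown, 99.9% of that of SNHG12 in both, and 95.1% and 96.7% of that of SNHG5, the lowest share among the 6 hosts. Since the naming asked for a minimum height, this partly follows from it. Of the 26 regions of these hosts whose mean summit was at least 100, 22 held a named gene, and the 4 others reached at most 423 in wild type and 512 in knockdown. All 22 host regions whose mean summit was at least 1000 held one. For SNHG5 the naming used that same minimum, so there the count is not independent of it.

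**Figure D2:**
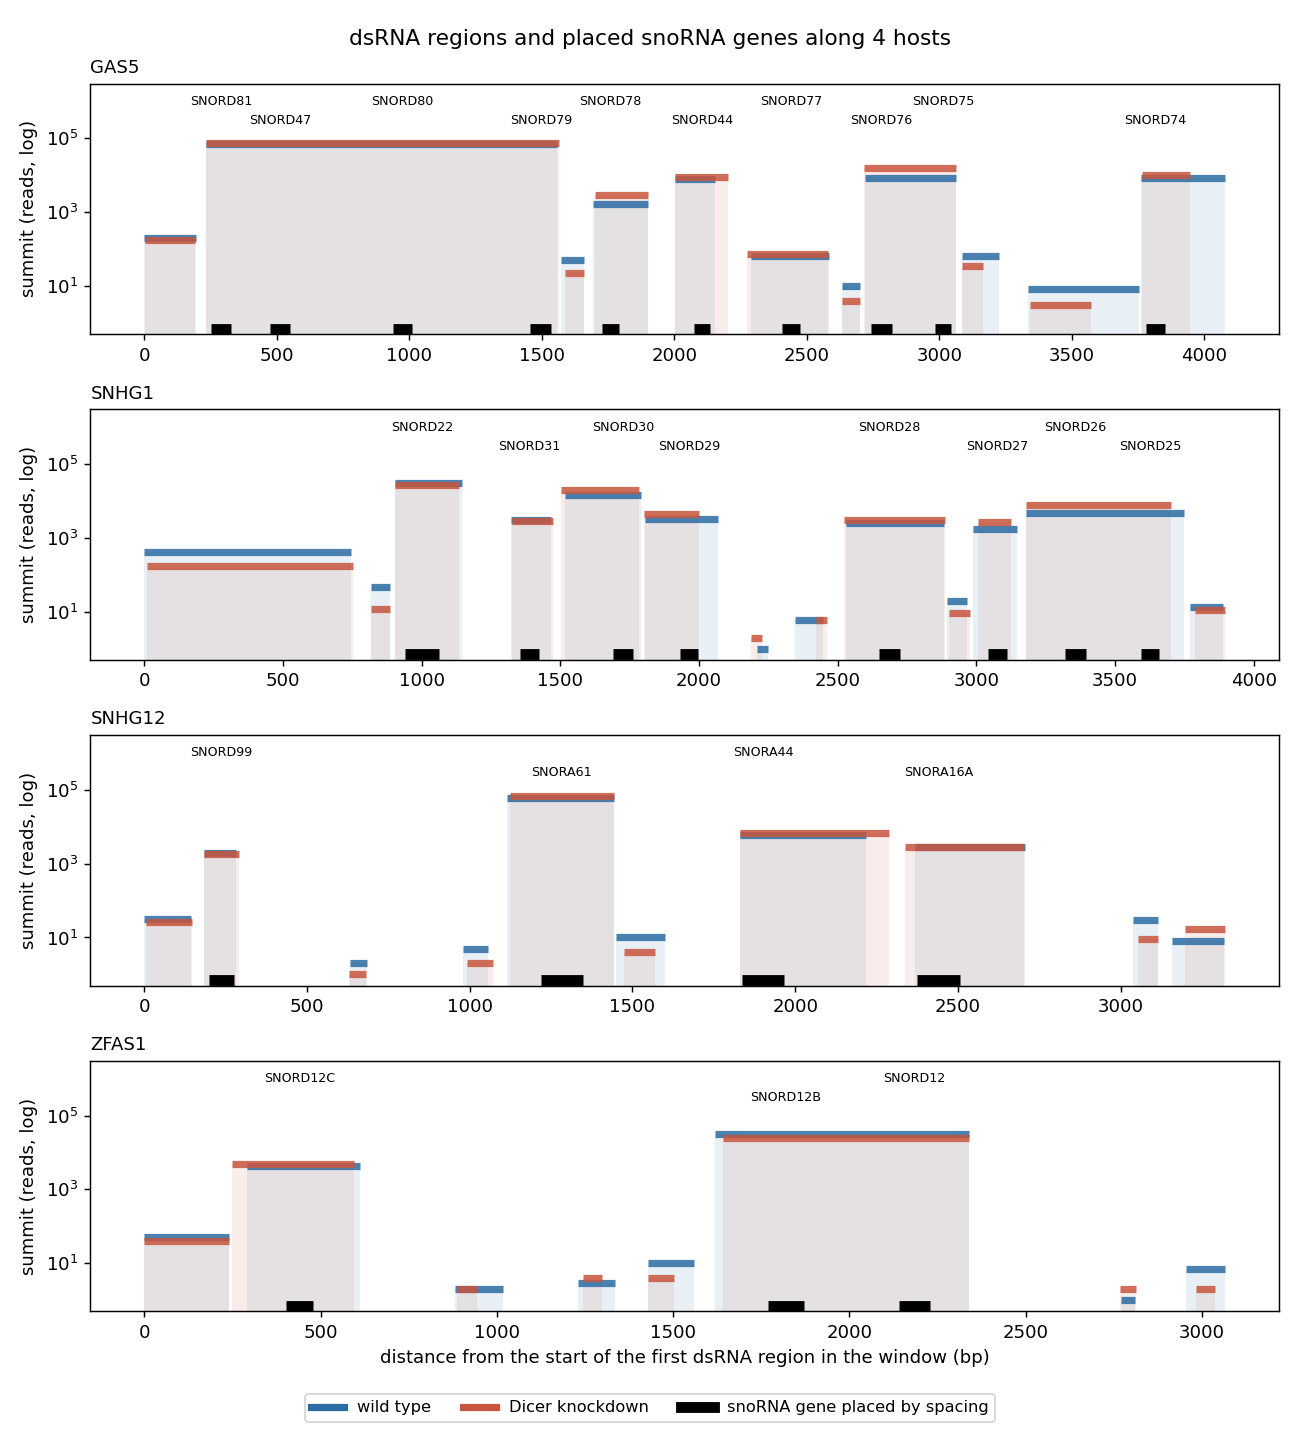
dsRNA regions along GAS5, SNHG1, SNHG12 and the first part of ZFAS1: distance from the first region in bp (horizontal) against summit in reads (vertical, log scale), wild type in blue, knockdown in red, snoRNA genes placed by spacing in black. The tall regions sit over the black marks. This partly follows from the placement, which fitted the genes to regions that reached a minimum height. SNORD77 of GAS5, placed only once lower regions were allowed, lies in a region of only 66 and 71.

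The same 22 regions were the host members of the deposited final set, the 1003 regions whose summit exceeds 1500 in wild type and also in knockdown. That is 24.7% of the host regions, against 0.369% of all regions. GAS5 gave 5 of them, SNHG1 7, SNHG12 4, and SNHG3, SNHG5 and ZFAS1 2 each. SNHG6 and SNHG8 gave 0. The lowest host region in the set was that of SNORD50B, with 1565 and 1650.

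At GAS5 (chromosome 1), the main region ran from 173833262 to 173834587, 1325 bp in wild type and 1331 bp in knockdown, and spanned SNORD47, SNORD79, SNORD80 and SNORD81, all box C/D. It reached 71289 in wild type and 72716 in knockdown, a scaled fold of 0.977 (0.967 to 0.987). A single summit does not tell which of the 4 genes it comes from. The region of SNORD75 and SNORD76 (173835749 to 173836095) had 8425 and 15713, a fold of 1.79 (1.74 to 1.83), the highest among the 23. The region of SNORD78 had 1651 and 2876, a fold of 1.67. Before scaling these 2 regions were 1.87 and 1.74 times as high in knockdown, beside 1.02 times for the main region. SNORD44 had 7683 and 8707, a fold of 1.09, and SNORD74 had 8447 and 9825, a fold of 1.11. SNORD77, with 66 and 71, was far below its neighbours, and its fold of 1.03 has a wide counting interval of 0.726 to 1.46.

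SNHG1 (chromosome 11), whose named genes are all box C/D, had a spread of ratios as wide as that of GAS5. Its highest region, that of SNORD22 (62620358 to 62620597), reached 29723 in wild type and 26381 in knockdown, a fold of 0.850 (0.836 to 0.864). The next in height, that of SNORD30, had 14662 and 19668, a fold of 1.28 (1.26 to 1.31). These 2 regions thus differed in opposite directions, before scaling too, but both were above 1 with the sums taken without the top 1%. The region of SNORD25 and SNORD26 had 4666 and 7618, a fold of 1.56, and SNORD27 had 1706 and 2678, a fold of 1.50. SNORD28 and SNORD29 lay between, with folds of 1.17 and 1.30, and SNORD31 had 3076 and 2851, a fold of 0.888.

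The H/ACA genes placed by spacing lay in SNHG12 and SNHG3 (both chromosome 1), while SNORA24 of SNHG8, also H/ACA, could not be placed. At SNHG12, SNORA61 (28906164 to 28906495) had 61051 and 67445, a fold of 1.06 (1.05 to 1.07). SNORA44 had 5990 and 6877, a fold of 1.10, and SNORA16A had 2780 and 2779, a fold of 0.957. The box C/D gene SNORD99 of the same host had 1973 and 1791, a fold of 0.869. SNHG12 was therefore the host with the most even ratios among those with more than 2 named regions. At SNHG3 the genes are SNORA73A and SNORA73B, copies of the U17 snoRNA, which takes part in processing of the ribosomal RNA precursor. SNORA73A (28833864 to 28834157) had 8781 and 11127, a fold of 1.21, while SNORA73B (28835022 to 28835295) had 28369 and 24004, a fold of 0.810. As near-identical copies they may share reads, so the opposite directions are uncertain, and both were above 1 with the sums taken without the top 1%.

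At ZFAS1 (chromosome 20), the region of SNORD12 and SNORD12B (47896793 to 47897513) reached 31764 in wild type and 24221 in knockdown. Its fold of 0.730 (0.718 to 0.743) was the lowest among the 23 regions. SNORD12C of the same host had 4180 and 4832, a fold of 1.11. The region of SNORD50A in SNHG5 (chromosome 6, 86386986 to 86387120) had 10897 and 10036, a fold of 0.882, and that of SNORD50B had 1565 and 1650, a fold of 1.01. The copies of the SNORD12 and SNORD50 families may also share reads.

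**Figure D3:**
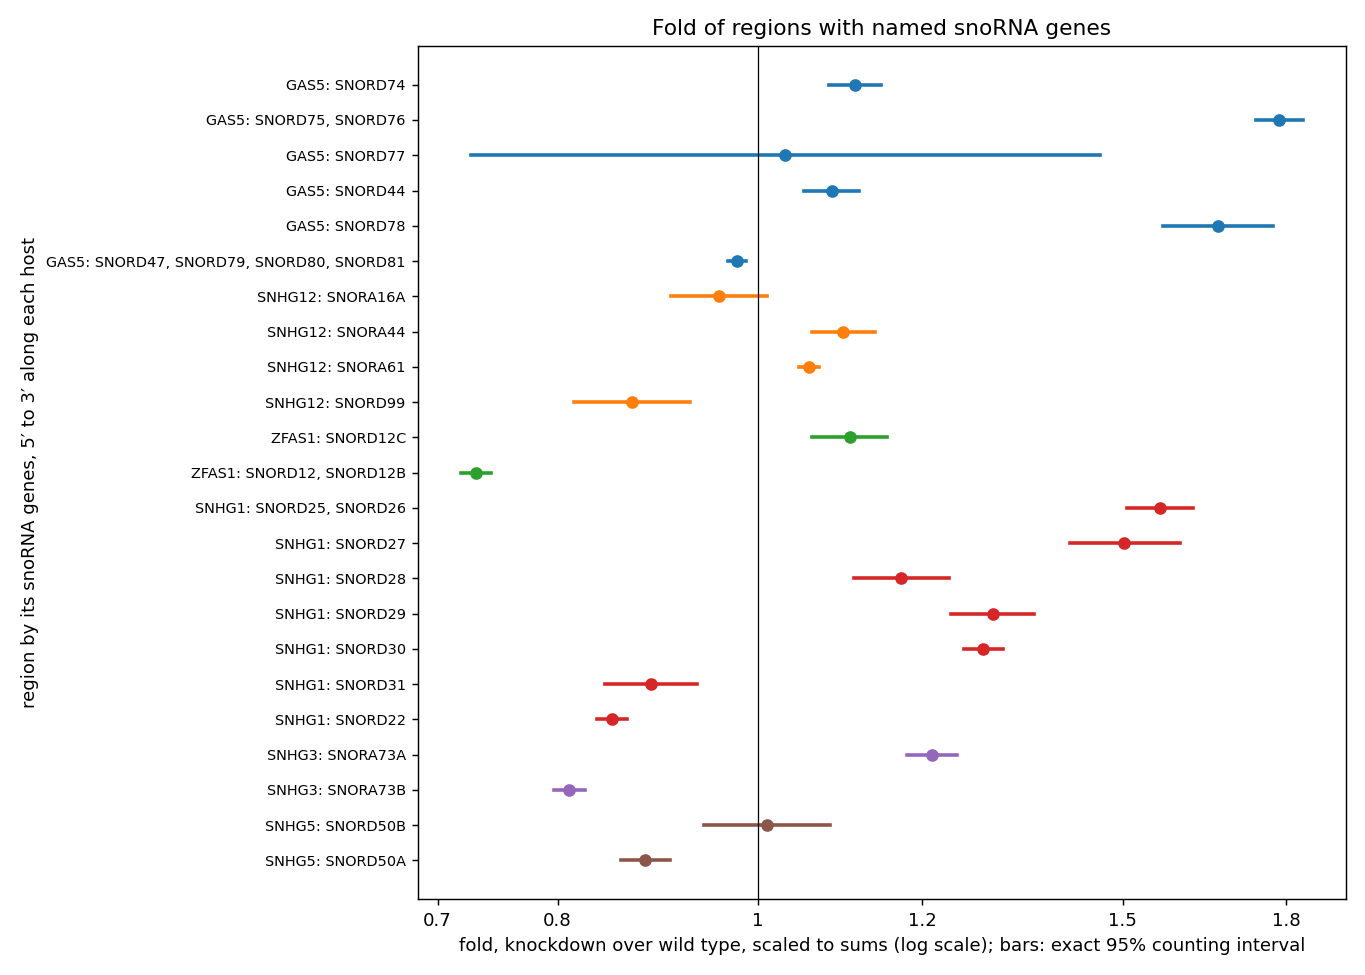
Scaled fold of knockdown over wild type (horizontal, log scale) for the 23 regions with named snoRNA genes, ordered 5′ to 3′ along each host; bars are exact 95% counting intervals and colours mark hosts. In each of the 6 hosts the last region lies to the left of the first. SNHG3, SNHG5 and ZFAS1 have only 2 such regions each, with genes that are family copies and may share reads. With the sums taken without the top 1% of regions all 23 lie above 1. The same holds for 84.7% of all regions whose mean summit was at least 1000, a level that 22 of the 23 reach.

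Set in the direction of transcription, as RefSeq gives the strand, the last region with a named gene had a lower fold than the first in 6 of 6 hosts. SNHG3, SNHG5 and ZFAS1 have only 2 such regions each, so there the first and the last are the whole comparison. In these hosts the compared genes are copies of the same family that may share reads, so their order is uncertain. At SNHG1 the fold was 1.56 at the first region and 0.850 at the last, with the 5 others between them. At ZFAS1 it was 1.11 and 0.730, at SNHG3 1.21 and 0.810, at SNHG5 1.01 and 0.882, at GAS5 1.11 and 0.977 and at SNHG12 0.957 and 0.869. The counting intervals of the first and last region were apart in 5 hosts and overlapped in SNHG12. This order does not depend on the scaling, but was noticed after the values were seen, and no test was made. GAS5 had no steady order, since its highest folds lay inside. In 5 of the 6 hosts, all but SNHG12, the last region was also the highest of the host, so position and level cannot be told apart. All other regions of the host, summed, had 1.38 times the fold of the highest region at GAS5, 1.50 times at SNHG1, 1.48 times at SNHG3 and 1.51 times at ZFAS1, but 1.01 times at SNHG5 and 0.962 times at SNHG12.

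Summed over all its regions, no host differed by 2-fold between the libraries with the main scaling, while SNHG8 reached a log2 ratio of 1.03 when scaled to the median ratio. GAS5 had 97887 in wild type over 3541 bp of regions, a mean of 8899 per region, and 110145 in knockdown over 3196 bp, a mean of 10013, a scaled fold of 1.08. ZFAS1 had 36447 over 2286 bp, a mean of 3037, and 29625 over 1959 bp, a mean of 2469, a fold of 0.778. SNHG8 had 794 over 1062 bp, a mean of 158.8, and 1160 over 1072 bp, a mean of 232, a fold of 1.40. The folds of the 8 sums thus ran from 0.778 at ZFAS1 to 1.40 at SNHG8, and those of the other 6 lay between. By this scaling 4 of the 8 were above 1, whereas all 8 were above 1 when scaled to the median ratio or without the top 1%.

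The 53 host regions at or above a combined summit of 20 had a median log2 ratio of -0.09, against -0.53 over the 35876 regions of the series at that minimum. With the sums taken without the top 1%, these medians were 0.39 and -0.05. By the main scaling 24 of the 53 were higher in knockdown, against 26.9% of all regions, whereas without the top 1% 39 were higher, against 47.7% of all regions. No host region was higher by 2-fold or more, against 5.07% of all regions, and 9 of 53 were lower by 2-fold or more, against 30.8%. Without the top 1%, 7 were higher and 2 lower, against 11.5% and 18.4% of all regions. Just short of 2-fold higher was a region of SNHG12 with 8 and 17 (log2 ratio 0.94), and just past 2-fold lower was one of SNHG1 with 19 and 9 (-1.06). Host regions are higher than most regions of the series, so their level has to be read beside these counts.

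At matched levels the difference was small for regions with snoRNA genes. The 22 host regions whose mean summit was at least 1000 had a median log2 ratio of 0.13, with a 95% interval of -0.17 to 0.36 that is taken across regions and not replicates. For all 1367 regions at that level the median was 0.03. Of the 22, 14 were higher, against 51.7% of the 1367, and 4 were higher by 1.5-fold or more, against 22.4%. By 2-fold or more, 0 were higher and 0 lower, against 9.66% and 3.66%. Without the top 1%, 4 of the 22 were higher by 2-fold or more, against 25.2%. These shares are given with the background and were not tested. The 18 regions with box C/D genes had a median log2 ratio of 0.13 and ran from -0.45 to 0.84. The 5 with H/ACA genes had 0.08 and ran from -0.30 to 0.28. The highest SNHG8 region, taken from general knowledge to hold the H/ACA gene SNORA24, is not among them and had 0.74. All 23 were above 0 with the sums taken without the top 1%. For the 22 of them at the high level, the share over all 1367 regions was 84.7%.

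**Figure D4:**
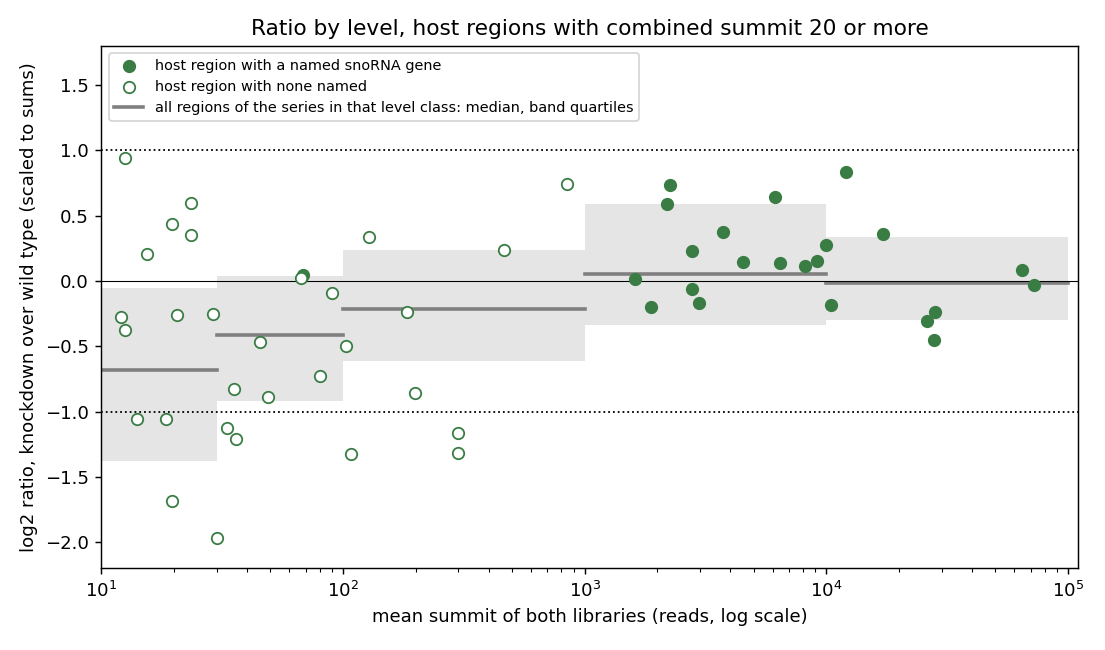
Log2 ratio of knockdown to wild type, scaled to the sums (vertical), against mean summit in reads (horizontal, log scale) for the 53 host regions whose combined summit was at least 20; grey lines and bands are the median and quartiles of all regions in each level class, and dotted lines mark 2-fold. Regions with named snoRNA genes lie within 2-fold, and the 9 regions past 2-fold lower are all at summits below 1000; another scaling shifts points and bands up together.

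The 9 regions that were lower by 2-fold or more lay in 6 hosts, and none held a named snoRNA gene. Of these, 3 reached a mean summit of 100. The region at the 3′ side of SNHG1 (62619453 to 62620200, beyond SNORD22) was 747 bp long, with 423 in wild type and 177 in knockdown, a fold of 0.402 (0.334 to 0.479). The region at the 5′ side of SNHG5 (86387834 to 86388460) was 626 bp long, with 409 and 190, a fold of 0.446 (0.373 to 0.530). The first region of SNHG8 (119199879 to 119200304) was 425 bp long, with 153 and 63, a fold of 0.398 (0.289 to 0.532). Before scaling, the regions with named snoRNA genes in SNHG1 and SNHG5 were 0.888 times as high in knockdown or more. Each of the 3 long regions was then less than 0.5 times as high. With the sums taken without the top 1%, each of these 3 was still lower, but by less than 2-fold. The 6 hosts with named genes are GAS5, SNHG1, SNHG3, SNHG5, SNHG12 and ZFAS1. Over their 22 regions without a named gene and at a combined summit of at least 20, the median log2 ratio was -0.60. Over their 23 regions with one it was 0.12. Without the top 1% these medians were -0.11 and 0.61. The regions without a named gene are far lower, and low regions of the whole series had lower ratios as well. Medians of all regions were -0.68 from a mean summit of 10 to below 30 and 0.05 from 1000 to below 10000. From 30 to below 100 the median was -0.41, beside -0.83 for the 9 regions without a named gene over all hosts. From 100 to below 1000 it was -0.21, beside -0.50 for 9 such regions. The 12 such regions from 10 to below 30 went the other way, with -0.26.

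Other regions without a named gene differed less or in the other direction. The 3′-most region of GAS5 (173833031 to 173833225) had 195 and 173, a fold of 0.850, while a distant region of ZFAS1 (47905566 to 47905797) had 415 and 512, a fold of 1.18. Over the 9 host regions with a mean summit from 100 to below 1000, 3 were lower by 2-fold or more, against 10.9% of all regions of that level. From 30 to below 100 it was 3 of 10, against 22.3%, and from 10 to below 30 it was 3 of 12, against 37.3%. These counts rest on few regions.

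SNHG6 (chromosome 8) had no tall region. Its 3 regions whose mean summit was at least 100 had 110 and 145, 118 and 87, and 252 and 145 in wild type and knockdown, folds of 1.26, 0.709 and 0.553. The first of these widened from 92 to 151 bp and the last was 122 bp in place of 167 bp. Which of them holds SNORD87 was not determined. At SNHG8 the region with 613 and 1070 had a fold of 1.67 (1.51 to 1.85), opposite to that of its first region.

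The widths of the taller host regions were nearly the same in both libraries. Among the 53 whose combined summit was at least 20, the median ratio of knockdown to wild-type width was 1.00, with 26 wider, 25 narrower and 2 equal. Narrower regions made up 58.6% of all regions at that minimum. None of the 53 had 0.5 times the wild-type width or less, against 3.69% of all regions. Low regions varied more. Over all 89 host regions, 46 were narrower, against 53.8% of all regions, 6 had 0.5 times the wild-type width or less, against 7.56%, and 4 had identical ends, against 4.94%. Among the 23 regions with named genes, 15 were wider and 8 narrower in knockdown. Of the 22 at the high level, 14 were wider, against 44.4% of the 1367. The ends moved most at SNORD74 of GAS5, from 317 to 179 bp, and at SNORA73B of SNHG3, from 273 to 388 bp. The region of SNORA44 went from 390 to 457 bp, while that of SNORD27 went from 160 to 117 bp.

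Regions exceeded the snoRNA genes they hold. Over the 14 regions with a single box C/D gene, the genes were 61 to 126 bp long and the regions 100 to 355 bp in wild type and 107 to 365 bp in knockdown. The tightest was that of SNORD99, 100 bp for a gene of 80 bp, and the loosest that of SNORD28, 355 bp for 75 bp. The 5 regions with a single H/ACA gene were 273 to 390 bp in wild type, for genes of 130 to 207 bp. The excess had a median of 128 bp for box C/D and 201 bp for H/ACA genes in wild type, and of 119.5 and 191 bp in knockdown. The sources used here do not say how regions were delimited, so these flanks may hold intron, exon or the reach of the reads.

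No DICER peak overlapped any of the 8 host windows or the 89 host regions, against 0.0423% of all regions, a share at which no overlap among 89 carries no information. The nearest peak on the same chromosome lay between 1.41 Mb away, at SNHG5, and 50.9 Mb away, at SNHG8. Only the 119 listed peaks were used, and no input library was analysed here.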

How the data were processed

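DICER ChIP-seq of wild-type HEK 293 cells and dsRNA sequencing of wild-type and of Dicer knockdown cells gave 1 library per group, as labelled. Per the submitters' processing notes, Bowtie 0.12.7 and MACS 1.4 are named for ChIP and bcl2fastq 1.8.4 and BWA 0.7 for dsRNA, both on hg19. The calling of dsRNA regions and the handling of reads with several matches are not given in the sources used here. A deposited summit is a coverage signal in whole reads, not scaled by library size. The deposited peak list gives the authors' peak score, which was not used beyond position. The workbook attached to both dsRNA samples is identical, so its sheets were told apart by name, normal being taken for wild type and induced for knockdown. If that is wrong, every direction reverses. Coordinates of dsRNA regions are printed as deposited, and width is stop minus start.

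Sheets were paired by row. The log2 ratio took knockdown summits scaled to the wild-type sum with a pseudocount of 1, and 2-fold counts took regions whose combined summit was at least 20. RefSeq positions (GRCh38.p14) served only for the spacing of snoRNA genes, with a tolerance of 10 bp, at least 2 genes placed and 1 best placement. The ratio and spacing steps were tested on simulated data (python 3.11.15, scipy 1.17.1). Ratios there were formed with the true factor, so the test did not cover the main scaling. The members, lists and comparisons were chosen with earlier results of these data known. Named items were the 8 hosts, up to 4 of their regions by level with a mean summit of 100 or more, and the snoRNA genes placed; other regions were named after their values were seen. Alternatives were the scaling, the pseudocount, the minimum height, the overlap rule and the spacing rule.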

Additional observations from a re-analysis of the deposited data

How the results depend on the processing

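Scaling is the main limit, since the depth of each library is unknown. Scaling to the median ratio gave the host regions a median log2 ratio of 0.45, and sums without the top 1% of regions gave 0.39, in place of -0.09. Either of these gave 7 regions higher and 2 lower by 2-fold or more and 8 hosts with a higher sum; without scaling, 1 region was higher by 2-fold. The sums of SNHG3 (0.40 and 0.35), SNHG5 (0.37 and 0.31), SNHG6 (0.24 and 0.18) and ZFAS1 (0.19 and 0.13) then also had log2 ratios above 0.

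The median was 0.023 at a minimum combined summit of 100 and 0.13 at a mean summit of 1000 or more, the latter chosen after seeing the data. Regions lower by 2-fold or more numbered 5 with a pseudocount of 10, 3 at a minimum of 100, 0 at a mean summit of 1000 or more, and 22 with no minimum, where 2 were higher. By the highest region alone, 2 hosts were higher, and GAS5 (-0.034) and SNHG1 (-0.23) turned. Without the highest region, SNHG3 (0.26), SNHG6 (0.013), SNHG8 (-1.06) and ZFAS1 (0.14) turned. The cause of these shifts was not tested beyond the change in scaling, regions or pseudocount itself. The overlap rule and windows widened by 2000 bp, which added 13 regions with summits of at most 18, left the counts of 2-fold differences, final set regions and peaks as they were. Placed snoRNA genes numbered 18 to 28 over the spacing rules. No paired analysis was possible because there was only 1 library in each group.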
